A study of Homo sapiens with 36 samples.

Results

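Ribosome biogenesis and RNA polymerase I genes were followed in prostate cancer cells treated with CDK4 inhibitors, as a list of 46 genes out of the 29872 genes in the deposited table. The list holds nucleolar genes regarded as dependent on the transcription factor MYC. Each symbol was matched to a gene identifier through the GENCODE annotation of the human genome build GRCh38, and every symbol was found. The rule itself used no measured value, but the members were chosen with earlier results of these data known. Each of the 46 genes passed the filter on low values, which asked for 3 or more libraries at 10 or more normalised counts, at both times. Among them are 7 genes of RNA polymerase I and rDNA transcription, 8 of small nucleolar ribonucleoproteins (snoRNPs), 10 of small subunit assembly, 15 of large subunit assembly and 5 other nucleolar proteins. The remaining member, TBRG4, is a regulator of mitochondrial RNA and no ribosome biogenesis factor in the usual sense.

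Ribosomes are assembled in the nucleolus, where RNA polymerase I transcribes the repeated ribosomal DNA into a long precursor RNA. snoRNPs modify that precursor, large protein assemblies fold and cut it, and the small and large ribosomal subunits mature on separate routes before export to the cytoplasm. MYC is a known activator of many of these genes, often through the E-box sequence in their promoters, and cells that divide fast make more ribosomes.

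LNCaP, a long-established line of human prostate cancer cells, was exposed for 24 h or 72 h to vehicle (to which the labels also give a dose of 2 µM), to AU2-94 or atirmociclib (both described as CDK4-selective) at 1 or 2 µM, or to ribociclib, a dual CDK4/6 inhibitor, at 2 µM. Each of the 12 groups held 3 replicate libraries, 36 in all, of total RNA from this 1 cell line with no genetic change. Cells for 72 h were seeded more thinly than those for 24 h, so time and seeding density cannot be told apart in any comparison between times. The library totals of normalised counts ran from 20675156 to 22692555, and 19708 to 21405 genes per library were listed above 0. The prostate luminal markers KLK3 and KLK2 were abundant in every library. Of the 9 markers of other cells, 7 stayed at or below 7.09 normalised counts in every library, while COL1A1 reached 194 to 644 and SYP 6.61 to 36. All values are relative to the RNA counted in a library, so fewer cells and less RNA per cell cannot be told apart, nor can a change of a cell's total RNA be seen.

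Promoter sequence was examined because the list is regarded as MYC-dependent. RefSeq promoter windows of build GRCh38.p14, from 250 bases before to 50 after the first listed start, were matched for 36 members. NOLC1, POLR1E, BOP1, MPHOSPH10, RRP12, URB2, TCOF1, NOP58, DDX18 and RRS1 were without an entry. The E-box CACGTG, which reads the same on both strands, was present in 12 of the 36 windows (33.3%), against 7.43% of 27305 promoters in all and 9.96% of the 11872 whose genes were tested across all libraries. The E2F motif TTTGGCGC, searched on both strands, was in none of the 36 windows, against 0.659% of all promoters and 1.02% of those of tested genes. At shares this low, its absence from 36 windows cannot show a lack of the motif. These matches describe the letters in the windows only. In 4 members an E-box lay wholly upstream of the first listed RefSeq start. The 60 bases that hold it are shown here 5′ to 3′ with the E-box in capitals, since they carry the motif searched for. All 4 lie on the plus strand, at chr12:101280045-101280104, chr11:34105569-34105628, chr16:69132589-69132648 and chr2:130342667-130342726, and in the first 3 the window ends at the base before the start.
UTP20: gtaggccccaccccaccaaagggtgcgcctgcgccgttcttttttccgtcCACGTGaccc
NAT10: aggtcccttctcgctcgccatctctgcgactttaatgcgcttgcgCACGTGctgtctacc
UTP4: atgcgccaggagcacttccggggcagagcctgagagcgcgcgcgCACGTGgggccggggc
IMP4: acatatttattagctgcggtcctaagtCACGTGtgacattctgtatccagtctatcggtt
The E-box began 10 bases before the RefSeq start in UTP20, 15 in NAT10, 16 in UTP4 and 203 in IMP4. The GENCODE span of UTP4 begins at chr16:69131291, ahead of the window shown, and that of NAT10 at chr11:34105617, inside its window. Among the 12 members with an E-box, 7 were lower in all 5 treatments at 72 h, and among the 24 without one, 11 were, where 8.59% of all genes were. UTP20 and NAT10 show the 2 ends of that range: UTP20 had the largest mean fall at 72 h of the 46 genes, and NAT10 passed the test in no treatment at either time.

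At 24 h the list moved in both directions. Treated libraries were set against vehicle libraries of the same time in limma, a linear model with moderated variances, on log2(normalised count + 1), and a gene passed at a Benjamini-Hochberg adjusted p of at most 0.05 over all genes tested. AU2-94 1 µM lowered 13 of the 46 genes and raised 3, where 13.5% of all 16137 genes tested were lower and 14.3% higher. AU2-94 2 µM lowered 19 and raised 3 (14.9% and 16% of all genes). Atirmociclib 1 µM lowered 9 and raised 7 (15.4% and 16.6%), atirmociclib 2 µM lowered 4 and raised 11 (16.2% and 18.6%), and ribociclib 2 µM lowered 12 and raised 3 (15.2% and 16.8%). The median log2 fold change of the 46 genes was -0.11 and -0.14 with AU2-94 1 and 2 µM, -0.03 and 0.04 with atirmociclib 1 and 2 µM, and -0.06 with ribociclib, where the median of all genes lay between -0.0032 and 0.0049. With atirmociclib the balance depended on the scaling: with every library scaled to the same total it was 14 lower and 2 higher at 1 µM, and 9 lower and 5 higher at 2 µM. With GC content and length in the model it was 7 lower and 12 higher at 1 µM, 3 lower and 19 higher at 2 µM, and 8 lower and 10 higher with ribociclib. The count for AU2-94 1 µM was 8 lower without vehicle replicate 1 or without vehicle replicate 3, and that for AU2-94 2 µM was 12 lower without its own replicate 1.

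At 72 h the list was lower in every treatment. AU2-94 1 µM lowered 38 of the 46 genes, AU2-94 2 µM 35, atirmociclib 1 µM 37, atirmociclib 2 µM 27 and ribociclib 24. Of all 16341 genes tested, 17%, 15.3%, 19.8%, 19.6% and 15.4% were lower in the same comparisons. Members that were higher numbered 0, 0, 1, 3 and 0, where 15.4%, 14.2%, 20%, 20.9% and 15.5% of all genes were higher. At an unadjusted p under 0.05 the counts of higher members with AU2-94 1 µM, AU2-94 2 µM and ribociclib were also 0. The median log2 fold change of the 46 genes was -0.34, -0.29, -0.31, -0.22 and -0.22, and that of all genes lay between -0.0083 and 0.0059. With 1 library left out, lower members numbered 32 to 36, 27 to 32, 29 to 33, 20 to 28 and 21 to 31. Higher members then numbered 0 to 1 with atirmociclib 1 µM and 1 to 4 with atirmociclib 2 µM. The ribociclib median then ran from -0.27 to -0.19. Ribociclib replicate 2 read above the other replicates of its group for some members. It held 334 against 213 and 193 for GAR1, and 1934 against 1514 and 1503 for RRP12. For FBL and NPM1 it was not the highest.

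Read as a share of all normalised counts, the 46 genes made up 0.640% to 0.653% of a vehicle library and 0.580% to 0.645% of a treated library at 24 h. At 72 h they made up 0.666% to 0.679% with vehicle and 0.504% to 0.566% in the 15 treated libraries. At 24 h only replicate 3 of atirmociclib 2 µM, at 0.645%, reached the vehicle range, and every other treated library lay below it. At 72 h all treated libraries lay below vehicle. Per gene, all 15 treated libraries lay below the 3 vehicle libraries for 8 members at 24 h (10.7% of all genes) and above them for 4 (11% of all genes). At 72 h the treated libraries lay below for 23 members, where 11.3% of all genes did so, and above for none, where 9.96% did so.

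**Figure D1:**
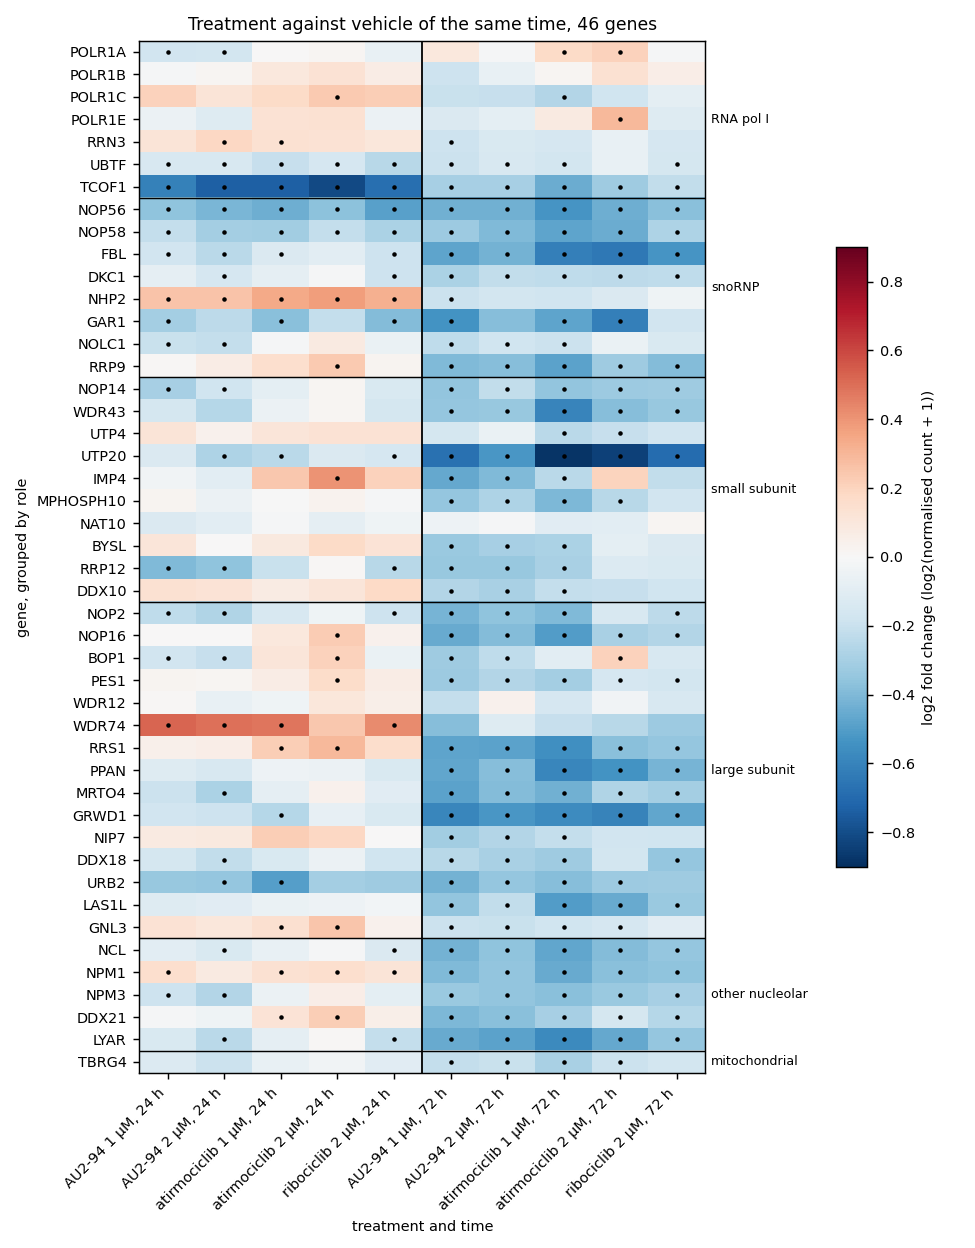
Log2 fold change against vehicle of the same time (colour) for the 46 genes (rows, grouped by role) in the 5 treatments at 24 h and 72 h (columns). A black dot marks an adjusted p of at most 0.05 in limma. The left columns hold blue and red, with TCOF1 the darkest blue; the right columns are blue in all but a few rows, such as POLR1A.

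Of the 46 genes, 4 were lower in all 5 treatments at 24 h (UBTF, TCOF1, NOP56 and NOP58), where 7.82% of all genes were, and 1 was higher in all 5 (NHP2), where 9.2% were. At 72 h, 21 were lower in all 5, against 8.59% of all genes, and 0 were higher in all 5, against 8.54%. The calls of 16 of these 21 held under each alternative setting and each left-out library, while NOP14, NOP16, PES1, LAS1L and DDX21 lost a call under at least 1. At 72 h 6 genes were lower in no treatment: POLR1A, POLR1B, POLR1E, NAT10, WDR12 and WDR74.

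The change between times was tested as the effect at 72 h minus the effect at 24 h, in 1 fit of all 36 libraries and 16850 genes. The effect of AU2-94 1 µM was lower at 72 h for 25 members and higher for 2, where 11.5% of all genes were lower and 10.1% higher. The counts were 14 and 1 for AU2-94 2 µM (9.28% and 9.26% of all genes), 27 and 1 for atirmociclib 1 µM (10.6% and 11.3%), 26 and 1 for atirmociclib 2 µM (9.96% and 11.7%), and 16 and 1 for ribociclib (9.66% and 10.5%). In all 5 treatments the effect was lower at 72 h for 9 members, NHP2, RRP9, UTP20, PES1, RRS1, PPAN, NCL, NPM1 and DDX21, against 4.33% of all genes. The calls of 5 of these 9 held under each alternative, while UTP20, PES1, PPAN and NCL lost a call under at least 1. Of the 120 alternative values of PPAN, 9 lost the call with a library left out and 4 under another setting. The effect was higher at 72 h in all 5 only for TCOF1, and in AU2-94 1 µM also for POLR1A. No change of effect passed in any treatment for 13 members.

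Few members passed between the times in vehicle cells. Of the 46 genes 0 were lower at 72 h than at 24 h (3.64% of all genes). At an unadjusted p under 0.05, 2 were lower and 13 higher, where 3571 of all 16850 genes had such a p. FBL, GNL3 and NPM1 were higher (3.85% of all genes), by 0.20, 0.18 and 0.20 on the log2 scale. With every library scaled to the same total the counts were 2 lower and 2 higher.

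**Figure D2:**
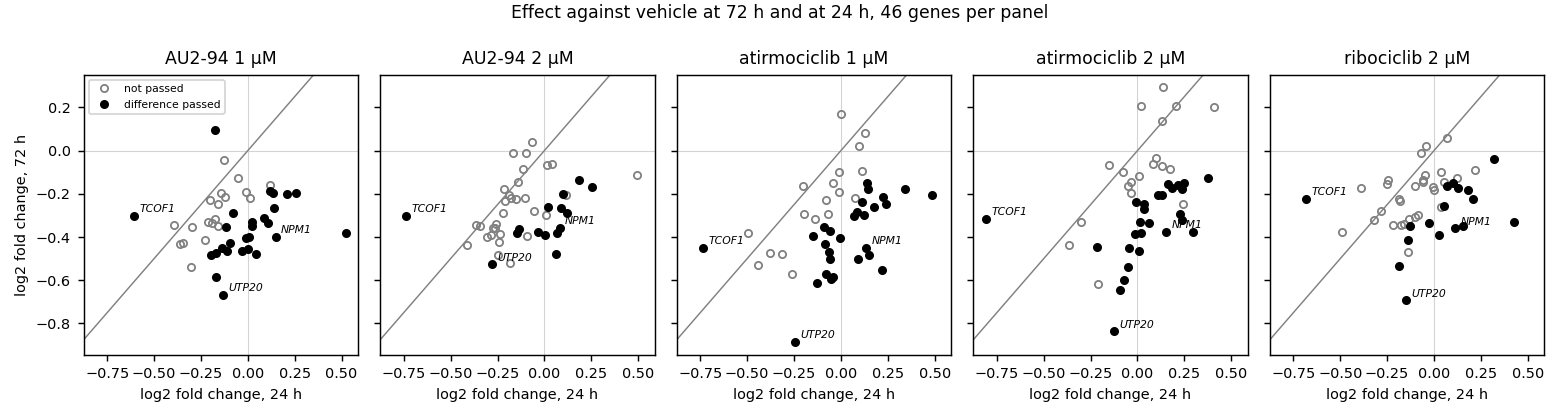
Log2 fold change against vehicle at 24 h (horizontal axis) and at 72 h (vertical axis), 1 panel per treatment and 1 circle per gene; the grey diagonal marks equal effects and filled circles mark genes whose difference between times passed. Most filled circles lie below the diagonal, UTP20 lowest; TCOF1 lies above it at the far left of each panel.

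RNA polymerase I and rDNA transcription. TCOF1 encodes treacle, a nucleolar protein needed for rDNA transcription, and lies at chr5:150357629-150400308 on the plus strand. At 24 h the 3 vehicle libraries read 2469, 2347 and 2364, AU2-94 1 µM 1586, 1582 and 1541, and AU2-94 2 µM 1388, 1417 and 1505. With atirmociclib it read 1356, 1405 and 1556 at 1 µM and 1327, 1335 and 1435 at 2 µM, and ribociclib gave 1512, 1468 and 1494. Every treated library lay below every vehicle library, with treated values between 1327 and 1586. At 72 h the 3 vehicle libraries read 2426, 2459 and 2476, AU2-94 1 µM 1985, 1999.7 and 1988, and AU2-94 2 µM 2121, 1879 and 1978. Atirmociclib gave 1751, 1859.5 and 1783 at 1 µM and 2058, 1947 and 1907 at 2 µM, and ribociclib left 2123, 2190.2 and 1996. The treated libraries again lay below vehicle, but higher than at 24 h. TCOF1 fell by 0.61 ± 0.0555 (SE, n = 3 libraries per group) on the log2 scale with AU2-94 1 µM at 24 h and by 0.81 ± 0.0555 with atirmociclib 2 µM, the smallest and largest of the 5 falls (adjusted p = 1.88e-07 and 1.76e-09). At 72 h the falls ran from 0.22 to 0.45, with atirmociclib 1 µM the largest. The fall was smaller at 72 h by 0.31 and 0.43 with AU2-94 1 and 2 µM, 0.29 and 0.49 with atirmociclib 1 and 2 µM, and 0.46 with ribociclib (adjusted p from 6.93e-06 to 0.00403). With GC content and length fitted as well, the differences for AU2-94 1 µM and atirmociclib 1 µM no longer passed.

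UBTF, which binds the rDNA promoter and keeps rDNA open, fell in all 5 treatments at 24 h, by 0.14 to 0.25 on the log2 scale, and in 4 at 72 h, by 0.15 to 0.20. At 72 h it read -0.07 with atirmociclib 2 µM (adjusted p = 0.319). Of the 90 alternative values of the 5 UBTF calls at 24 h, 12 lost the call with a library left out and 13 under another setting. The polymerase subunits passed in few comparisons. POLR1A, the largest catalytic subunit, fell by 0.17 with both doses of AU2-94 at 24 h and rose by 0.17 and 0.20 with atirmociclib 1 and 2 µM at 72 h. The rise with atirmociclib 1 µM lost its call in some runs with a library left out and under some other settings. POLR1B, the second largest subunit, passed in no treatment at either time, with standard errors of 0.139 at 24 h and 0.097 at 72 h. POLR1E, a subunit specific to RNA polymerase I, rose with atirmociclib 2 µM at 72 h (0.29 ± 0.0672, adjusted p = 0.00179).

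POLR1C, a subunit shared with RNA polymerase III, and RRN3, which brings the polymerase to the rDNA promoter, read above vehicle in all 15 treated libraries at 24 h. POLR1C passed there only with atirmociclib 2 µM (0.24, adjusted p = 0.0375) and RRN3 with AU2-94 2 µM (0.18) and atirmociclib 1 µM (0.14). With the replicate number as a block POLR1C also passed with ribociclib (adjusted p = 0.0447) and RRN3 with atirmociclib 2 µM (adjusted p = 0.0473). At 72 h POLR1C fell with atirmociclib 1 µM by 0.26 and RRN3 with AU2-94 1 µM by 0.19. RRN3 shares up to 948 bases at 98.3% identity with pseudogenes, so its reads may be split among them.

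The snoRNP proteins. NOP56, NOP58 and FBL are core proteins of box C/D snoRNPs, in which FBL, fibrillarin, is the 2′-O-methyltransferase. All 3 fell in all 5 treatments at 72 h. FBL lies at chr19:39834458-39846379 on the minus strand. At 24 h FBL in the 3 vehicle libraries read 3484, 3575 and 3478, AU2-94 1 µM 2999, 3233 and 3128, and AU2-94 2 µM 2859.7, 3074 and 2986. With atirmociclib it read 3278, 3099 and 3266 at 1 µM and 3466, 3163 and 3244 at 2 µM, and ribociclib gave 3049, 3029.8 and 3180.5. The treated libraries lay just below vehicle, the nearest at 3466 against a lowest vehicle value of 3479. At 72 h FBL in the 3 vehicle libraries read 3961, 4015 and 4156, AU2-94 1 µM 2892, 2983 and 2861, and AU2-94 2 µM 3215, 2910.0 and 2925. Atirmociclib gave 2588, 2541 and 2807 at 1 µM and 2707, 2557 and 2493 at 2 µM, and ribociclib left 2912, 2757 and 2714. The treated and vehicle libraries were now far apart, with no treated library above 3215 and no vehicle library below 3961. At 72 h FBL fell by 0.47 and 0.42 with AU2-94 1 and 2 µM, by 0.61 and 0.65 with atirmociclib 1 and 2 µM and by 0.53 with ribociclib (SE 0.0525, adjusted p from 1.18e-08 to 7.58e-06). At 24 h the falls were 0.17, 0.24, 0.13 and 0.19 with AU2-94 1 and 2 µM, atirmociclib 1 µM and ribociclib, and the value for atirmociclib 2 µM was -0.09 (adjusted p = 0.122). The fall with atirmociclib 1 µM at 24 h did not pass with the replicate block (adjusted p = 0.0579).

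NOP56 fell in all 5 treatments at both times, by 0.36 to 0.49 at 24 h and 0.38 to 0.53 at 72 h. Vehicle libraries held 5918 to 6099 normalised counts of NOP56 at 24 h and treated libraries 4200 to 4926. NOP58 fell by 0.21 to 0.31 at 24 h and 0.28 to 0.48 at 72 h. No change of effect between times passed for NOP56, and for NOP58 it passed with atirmociclib 2 µM alone (-0.23, adjusted p = 0.0171). RRP9, a protein of the U3 snoRNP, behaved otherwise: it read between 0.01 and 0.24 at 24 h, passed there as higher with atirmociclib 2 µM, and fell by 0.32 to 0.48 in all 5 treatments at 72 h.

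DKC1, GAR1 and NHP2 belong to the box H/ACA snoRNPs, which turn uridine into pseudouridine, with DKC1, dyskerin, as the enzyme. DKC1 fell in all 5 treatments at 72 h by 0.22 to 0.29 and with AU2-94 2 µM and ribociclib at 24 h. GAR1 fell in 3 treatments at each time, at 72 h with AU2-94 1 µM and both doses of atirmociclib by 0.47 to 0.62, with a standard error of 0.166. NHP2 was the only member higher in all 5 treatments at 24 h, by 0.26 to 0.38. All 15 treated NHP2 values at 24 h (2484 to 2953) were above those of vehicle (2119 to 2303). At 72 h NHP2 read between -0.04 and -0.19 and passed only with AU2-94 1 µM (adjusted p = 0.0478, and 0.0576 with the replicate block). Of its annotated exons 28% overlap RMND5B on the other strand. NOLC1, a snoRNP chaperone, fell in 2 treatments at 24 h and in 3 at 72 h.

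Small subunit assembly. UTP20, a very large protein of the processome that forms on the small subunit precursor, lies at chr12:101280105-101386618 on the plus strand, right after the promoter sequence shown above. At 24 h UTP20 in the 3 vehicle libraries read 2124, 2146 and 2144, AU2-94 1 µM 1895, 1981 and 1980.5, and AU2-94 2 µM 1789, 1658 and 1845. With atirmociclib it read 1761, 1772 and 1889 at 1 µM and 1937, 2008 and 1926 at 2 µM, and ribociclib gave 1815, 1911 and 2067. Each treated library was below each vehicle library, the nearest being 1 of ribociclib. At 72 h UTP20 in the 3 vehicle libraries read 2285, 2448 and 2355, AU2-94 1 µM 1646, 1417 and 1407, and AU2-94 2 µM 1709, 1679 and 1534. Atirmociclib gave 1301, 1291 and 1244 at 1 µM and 1394, 1272 and 1301 at 2 µM, and ribociclib left 1519, 1460.0 and 1404. The gap had widened, and the 6 atirmociclib libraries, at 1244 to 1394, were the lowest. UTP20 fell at 72 h by 0.89 ± 0.0652 (SE, n = 3) with atirmociclib 1 µM and 0.84 ± 0.0652 with atirmociclib 2 µM (adjusted p = 3.8e-09 and 6.31e-09). The falls with AU2-94 1 and 2 µM were 0.67 and 0.53 and that with ribociclib 0.69. At 24 h only AU2-94 2 µM (fall of 0.28), atirmociclib 1 µM (0.24) and ribociclib (0.15) passed. The fall was larger at 72 h in all 5 treatments, by 0.25 with AU2-94 2 µM and 0.71 with atirmociclib 2 µM at the extremes, although for AU2-94 2 µM the difference no longer passed with any of 8 libraries left out and under 3 other settings, equal totals among them.

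NOP14 and WDR43, 2 further processome proteins, fell in all 5 treatments at 72 h, by 0.22 to 0.35 and 0.34 to 0.60. WDR43 passed in no treatment at 24 h, with an SE of 0.116 there and 0.056 at 72 h. MPHOSPH10, which travels with the U3 snoRNP, fell in 4 treatments at 72 h by 0.25 to 0.41 and read -0.17 with ribociclib (adjusted p = 0.0892). BYSL, RRP12, which acts in export of the precursor, and the helicase DDX10 each fell in 3 treatments at 72 h, both doses of AU2-94 and atirmociclib 1 µM. The DDX10 call with atirmociclib 1 µM did not pass with the replicate block (adjusted p = 0.0597). RRP12 had also fallen at 24 h with both doses of AU2-94, by 0.40 and 0.36, and with ribociclib by 0.25. UTP4 fell at 72 h with atirmociclib alone, by 0.24 and 0.20 at 1 and 2 µM.

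IMP4, a partner of MPHOSPH10, fell with both CDK4-selective compounds at 1 µM at 72 h but did not move alike with them at 2 µM. It fell by 0.46 and 0.40 with AU2-94 1 and 2 µM and by 0.25 with atirmociclib 1 µM at 72 h, and read 0.20 with atirmociclib 2 µM (adjusted p = 0.0935). At 24 h it rose by 0.41 with atirmociclib 2 µM. NAT10, the RNA cytidine acetyltransferase, read between -0.13 and 0.02 over all 10 comparisons, with standard errors of 0.0563 at 24 h and 0.0506 at 72 h. It passed in none of them, and its lowest unadjusted p at 72 h was 0.0667.

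Large subunit assembly. GRWD1, a WD-repeat protein of the large subunit precursor, lies at chr19:48445841-48457022 on the plus strand and shares 285 bases of exon with KCNJ14. At 24 h GRWD1 in the 3 vehicle libraries read 1226, 1082 and 995, AU2-94 1 µM 937, 972 and 1012, and AU2-94 2 µM 967, 1036 and 896. Under atirmociclib the values were 851, 990.4 and 912 at 1 µM and 972, 1054 and 1110.2 at 2 µM, and ribociclib gave 932, 945 and 1117. Atirmociclib 1 µM lay just below vehicle, and the other 4 treatments overlapped it. At 72 h GRWD1 in the 3 vehicle libraries read 1239, 1271 and 1262, AU2-94 1 µM 794, 929 and 799, and AU2-94 2 µM 898, 847 and 884. The atirmociclib libraries held 793, 901 and 851 at 1 µM and 918, 703 and 886 at 2 µM, and ribociclib left 835, 970.0 and 926. No treated library exceeded 970.0 and no vehicle library was below 1239. GRWD1 fell by 0.47 to 0.60 at 72 h (SE 0.0916, adjusted p from 3.68e-05 to 0.000678). At 24 h it passed only with atirmociclib 1 µM (-0.26, adjusted p = 0.0337), and 10 of the alternative values lost that call.

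The PeBoW complex, which joins PES1, BOP1 and WDR12 on the large subunit precursor, did not move as a unit. PES1 fell in all 5 treatments at 72 h, by 0.15 to 0.33. BOP1 fell with AU2-94 1 and 2 µM by 0.32 and 0.23 and rose by 0.20 with atirmociclib 2 µM, as it had at 24 h (-0.18, -0.21 and 0.21). WDR12 passed in no treatment at either time, with standard errors of 0.162 and 0.137, the former the largest at 24 h among the 46 genes.

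RRS1, which recruits the 5S ribonucleoprotein, fell in all 5 treatments at 72 h by 0.35 to 0.55, and at 24 h it had risen with atirmociclib 1 and 2 µM by 0.22 and 0.29. PPAN fell in all 5 by 0.38 to 0.59, NOP16 by 0.26 to 0.50, MRTO4 by 0.27 to 0.48 and LAS1L, a subunit of the endonuclease that cuts the second internal spacer, by 0.22 to 0.50. Of the annotated exons of PPAN 47.6% lie also in the read-through gene PPAN-P2RY11. NOP2, an rRNA cytosine methyltransferase, fell in 4 treatments at 72 h, the helicase DDX18 in 4, URB2 in 4 and the GTPase GNL3, nucleostemin, in 4. The treatment without a call was ribociclib for URB2 and GNL3 (adjusted p = 0.0659 and 0.203) and atirmociclib 2 µM for NOP2 and DDX18 (adjusted p = 0.0947 and 0.111). NIP7 fell in 3, both doses of AU2-94 and atirmociclib 1 µM, of which the last did not pass with the replicate block (adjusted p = 0.0613).

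WDR74 had the largest rises of the list at 24 h. It rose by 0.52, 0.49 and 0.48 with AU2-94 1 and 2 µM and atirmociclib 1 µM and by 0.43 with ribociclib (SE 0.11), and read 0.25 with atirmociclib 2 µM (adjusted p = 0.095). At 72 h it read between -0.11 and -0.38 with an SE of 0.194 and passed in none. The difference between times was the largest of the list, -0.90 ± 0.241 with AU2-94 1 µM, and passed also with atirmociclib 1 µM (-0.69) and ribociclib (-0.76). WDR74 shares 191 exonic bases with RNU2-2P on the same strand, so reads of the 2 genes may have been counted together.

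Other nucleolar proteins. NCL and NPM1, nucleolin and nucleophosmin, are the abundant histone and RNA chaperones of the nucleolus. Per kilobase of canonical transcript they had the highest levels of the list in vehicle cells at 24 h, 15282 ± 383 normalised counts per kb for NPM1 and 5868 ± 119 for NCL (SD, n = 3), against 134 ± 17.5 for WDR12, the lowest. NPM1 rose at 24 h in 4 treatments by 0.11 to 0.15 and fell at 72 h in all 5 by 0.36 to 0.45. All 15 treated NPM1 libraries held 20718 to 23306 at 24 h, above vehicle at 19592 to 20516, and 16416 to 18293 at 72 h, below vehicle at 22449 to 23760. Under quantile normalisation the 24 h values were below 0 in all 5 treatments, while the 72 h calls held under each alternative run. NPM1 shares up to 834 bases at 98.2% identity with the pseudogene NPM1P27.

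NCL fell in all 5 treatments at 72 h by 0.35 to 0.47, and at 24 h by 0.14 and 0.13 with AU2-94 2 µM and ribociclib. DDX21, a helicase that links rDNA transcription and rRNA processing, rose at 24 h with atirmociclib 1 and 2 µM by 0.12 and 0.22 and fell in all 5 treatments at 72 h by 0.16 to 0.40. NPM3 fell in all 5 at 72 h by 0.30 to 0.37 and with both doses of AU2-94 at 24 h by 0.19 and 0.26, of which the first did not pass with the replicate block (adjusted p = 0.0575).

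LYAR, a nucleolar zinc-finger protein, lies at chr4:4267701-4290154 on the minus strand. At 24 h LYAR in the 3 vehicle libraries read 826, 812 and 793, AU2-94 1 µM 745, 711 and 752, and AU2-94 2 µM 701, 604 and 753. Under atirmociclib the values were 758, 776 and 767 at 1 µM and 757, 861 and 829 at 2 µM, and ribociclib gave 673, 703 and 714. Atirmociclib 2 µM overlapped vehicle, and the other 4 treatments lay below it. At 72 h LYAR in the 3 vehicle libraries read 843, 833 and 951, AU2-94 1 µM 644, 630.1 and 643, and AU2-94 2 µM 640.4, 569.6 and 669. The atirmociclib libraries held 590.0, 566 and 606 at 1 µM and 650.3, 614 and 637 at 2 µM, and ribociclib left 669, 748 and 649. All treated libraries were below vehicle. LYAR fell at 72 h by 0.35 to 0.57 (SE 0.0767, adjusted p from 8.31e-06 to 0.00194). At 24 h it fell with AU2-94 2 µM by 0.24 and ribociclib by 0.22.

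TBRG4, the mitochondrial RNA regulator, lies at chr7:45100100-45112047 on the minus strand. At 24 h TBRG4 in the 3 vehicle libraries read 2142, 1866 and 2229.7, AU2-94 1 µM 2068, 1819 and 1836, and AU2-94 2 µM 1757, 1862 and 1833. Under atirmociclib the values were 2092, 2053 and 1795 at 1 µM and 1999, 2119 and 1957 at 2 µM, and ribociclib gave 1921, 2007 and 1881. AU2-94 2 µM lay just below vehicle, the other 4 treatments overlapped it, and no treatment passed. At 72 h TBRG4 in the 3 vehicle libraries read 2008, 2218 and 2119, AU2-94 1 µM 1748, 1826 and 1891, and AU2-94 2 µM 1908, 1835 and 1765. The atirmociclib libraries held 1666, 1729 and 1786 at 1 µM and 1917, 1868 and 1757 at 2 µM, and ribociclib left 1817, 2084 and 1764. Ribociclib alone still overlapped vehicle, through its replicate 2 at 2084. TBRG4 fell in the other 4 treatments by 0.20 to 0.29, and read -0.17 ± 0.0638 with ribociclib (adjusted p = 0.0563). No change of its effect between times passed.

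Among these genes 9 carry snoRNA genes within their own span (DKC1, GNL3, NCL, NOP56, NOP58, POLR1C, PPAN, TBRG4 and WDR43). Of the 9, 6 fell in all 5 treatments at 72 h, GNL3 and TBRG4 in 4 and POLR1C in 1, where 21 of the 46 genes and 8.59% of all genes fell in all 5. The snoRNAs themselves were not analysed here.

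The compounds were set against each other at the same dose and time in 8 comparisons, and the doses of 1 compound in 4, all drawing on the same libraries. At 24 h atirmociclib 1 µM differed from AU2-94 1 µM in 4 members, all higher (0 lower, with 2 lower at an unadjusted p under 0.05), where 1.48% of all genes were higher and 3.16% lower. At 2 µM 13 members were higher with atirmociclib than with AU2-94 and 0 lower, with 1 lower at an unadjusted p under 0.05 (5.12% higher and 4.31% lower of all genes). BOP1 had the lowest adjusted p among them (0.42 ± 0.0593, adjusted p = 0.000204), at a mean of 1889.6 normalised counts with atirmociclib and 1415 with AU2-94. IMP4 differed most in size (0.50 ± 0.0917, adjusted p = 0.00206). NOLC1, DDX21, RRP12, MRTO4 and NPM3 were also higher, by 0.25 to 0.37. With every library scaled to the same total 7 members were higher, and with the correction for GC content and length 27 were.

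At 72 h the differences ran both ways. Atirmociclib 1 µM against AU2-94 1 µM left BOP1 higher and WDR43 and UTP20 lower (4.53% and 3.7% of all genes), and with equal totals 8 were lower and 0 higher. At 2 µM POLR1A, POLR1E, IMP4, NOP2, BOP1 and DDX21 were higher with atirmociclib than with AU2-94 and FBL, UTP20 and LAS1L lower (11.1% and 8.73% of all genes). IMP4 differed by 0.60 ± 0.0923 (adjusted p = 0.000128) and UTP20 by -0.31 ± 0.0652 (adjusted p = 0.00214). Equal totals, which moved the median of all genes in this comparison by -0.10, gave 9 lower and 3 higher, so the balance of directions changed with the scaling.

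Atirmociclib 2 µM against ribociclib 2 µM gave 4 higher and 0 lower members at each time. At 24 h these were DKC1, BOP1, GNL3 and DDX21 (1.83% higher and 2.81% lower of all genes; 1 member lower at an unadjusted p under 0.05), and at 72 h POLR1A, POLR1E, IMP4 and BOP1 (4.83% and 4.35%; 6 members lower at an unadjusted p under 0.05). With equal totals the 72 h counts were 3 higher and 4 lower. Ribociclib 2 µM and AU2-94 2 µM differed in 0 members at 24 h (0.0186% of all genes lower and 0.0186% higher) and in 0 at 72 h (1.38% lower and 1.96% higher). At an unadjusted p under 0.05, 1 member was lower and 7 higher at 24 h, and 1 lower and 2 higher at 72 h. The 95% intervals of these differences reached from -0.37 to 0.49 over the 46 genes at 24 h and from -0.62 to 0.56 at 72 h, and their median half-width was 0.138 and 0.142.

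Few members passed between doses of 1 compound. AU2-94 2 µM differed from 1 µM in 0 members at 24 h (0.384% of all genes lower and 0.0248% higher) and in 0 at 72 h (0% and 0% of all genes), with 3 members lower and 1 higher at 24 h, and 3 higher at 72 h, at an unadjusted p under 0.05. At 72 h 732 of all genes had an unadjusted p under 0.05. Atirmociclib 2 µM differed from 1 µM in 0 members at 24 h (0.0062% lower and 0.0062% higher), with 1 lower and 4 higher at an unadjusted p under 0.05. At 72 h IMP4 and BOP1 were higher at 2 µM by 0.45 and 0.30 and 0 members were lower, none at an unadjusted p under 0.05 either (1.25% higher and 0.936% lower of all genes).

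A wider list of 131 other ribosome biogenesis genes was also mixed at 24 h and mostly lower or without a call at 72 h. At 24 h 20, 29, 20, 16 and 21 of them were lower and 11, 10, 21, 35 and 15 higher with AU2-94 1 and 2 µM, atirmociclib 1 and 2 µM and ribociclib. Of all genes 13.5%, 14.9%, 15.4%, 16.2% and 15.2% were lower and 14.3%, 16%, 16.6%, 18.6% and 16.8% higher. At equal totals the 24 h counts were 27 lower and 9 higher with atirmociclib 1 µM and 26 lower and 21 higher with atirmociclib 2 µM, where the median went from 0.067 to -0.0093. At 72 h 82, 71, 78, 60 and 52 were lower and 1, 1, 1, 6 and 1 higher, with medians from -0.27 to -0.19. Of all genes 17%, 15.3%, 19.8%, 19.6% and 15.4% were lower and 15.4%, 14.2%, 20%, 20.9% and 15.5% higher. Among large subunit genes BRIX1 fell by 0.47 to 0.78 and MAK16 by 0.53 to 0.73 in all 5 treatments at 72 h, and among small subunit genes DIMT1 by 0.32 to 0.58 and NGDN by 0.33 to 0.60. POLR1G, a subunit of RNA polymerase I, fell in all 5 treatments at both times, by 0.48 to 0.72 at 72 h. TAF1C, of the factor that selects the rDNA promoter, went the other way at 72 h and rose by 0.38 to 0.45 in 4 treatments, with 0.26 for atirmociclib 1 µM (adjusted p = 0.0758). At 24 h it fell with AU2-94 1 µM by 0.53 and with ribociclib by 0.38, and passed in no other treatment. The vehicle means of TAF1C were 899 at 24 h and 705 at 72 h (-0.36, adjusted p = 0.0601). The exosome subunit EXOSC8 fell in all 5 treatments at both times, by 0.52 to 0.75 at 24 h and 0.57 to 0.92 at 72 h. RPP25, of the RNase P and MRP complexes, fell at 72 h with both doses of atirmociclib and with ribociclib by 1.22 to 1.69. With AU2-94 1 and 2 µM it read -0.45 and -0.25 at 72 h (adjusted p = 0.287 and 0.591). The lack of a call there does not show that AU2-94 left RPP25 unchanged.

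Cytosolic ribosomal protein genes, the 79 structural partners of these factors, were higher at 24 h. At that time 78, 75, 77, 79 and 79 of them were higher and 0 lower, with medians from 0.33 to 0.39, when the biogenesis list was mixed. Of all genes 14.3% to 18.6% were higher and 13.5% to 16.2% lower. Under quantile normalisation 53 to 63 of the 79 genes were higher. At 72 h 22, 41, 17, 8 and 16 were lower and 0, 0, 8, 13 and 1 higher, with medians from -0.15 to -0.011. Of all genes 15.3% to 19.8% were lower and 14.2% to 20.9% higher. With atirmociclib 2 µM at 72 h the balance of the 79 genes turned with the scaling. It was 26 lower and 6 higher under quantile normalisation and 24 lower and 6 higher at equal totals.

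MYC itself was not lower in any treatment. At 24 h it held 7810 to 8367 normalised counts with vehicle and rose by 0.27 ± 0.064 and 0.21 ± 0.064 with atirmociclib 1 and 2 µM (adjusted p = 0.0034 and 0.0142), of which the second did not pass under equal totals or quantile normalisation. At 72 h, when the list was lower, all 15 treated libraries held 9827 to 11520 MYC counts and the 3 vehicle libraries 8204 to 8758. MYC rose at 72 h in all 5 treatments by 0.26 to 0.37, and under each of the 3 other scalings.

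**Figure D3:**
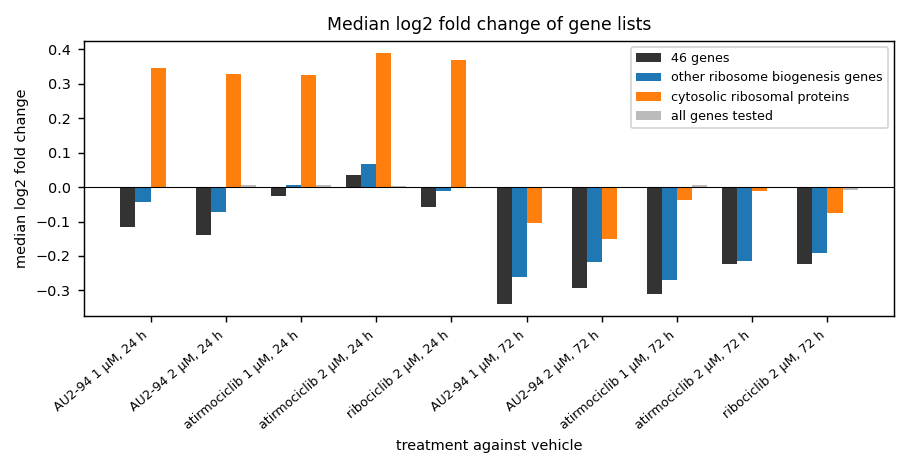
Median log2 fold change against vehicle (bars from 0) of the 46 genes, of 131 other ribosome biogenesis genes, of 79 cytosolic ribosomal protein genes and of all genes tested, in the 5 treatments at 24 h and 72 h. Ribosomal protein bars stand near 0.33 to 0.39 at 24 h; at 72 h the 46 genes are lowest, from -0.22 to -0.34.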

How the data were processed

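RNA from LNCaP cells in 12 groups of 3 replicates was sequenced as total RNA, paired-end. Per the labels and methods, reads were aligned by the authors with STAR 2.6.1d to GRCh38, and DESeq2 was used on the counts. The counter, its annotation and its strand setting are not given in the sources used here. The deposited values are normalised counts per gene, a signal already scaled between libraries and no longer whole, so the raw depth is unknown. limma 3.58.1 in R 4.3.3 was fitted with a variance trend to log2(normalised count + 1), which understates changes of low genes, for genes with at least 10 in at least 3 libraries, separately for 24 h and 72 h, and over 36 libraries for differences between times. Treatments of 1 time share vehicle libraries. Genes named with every library are the member with the largest mean change at 72 h in each role, and the members and lists were chosen with earlier results of these data known. The labels call the replicate number a batch, which may pair the samples, although same-numbered libraries deviated together little (mean r 0.0018 at 24 h and -0.0022 at 72 h). The main fits held no replicate block, which was run as an alternative. p-values measure the spread between these samples of 1 cell line. Similar loci were found with BLAST+ 2.17.0, figures drawn with matplotlib 3.10.9 in Python 3.11.15, and the fits tested on simulated data. Alternatives were 3 scalings, filters, pseudocounts, GC content and length, blocks, fewer groups and each library left out.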

Additional observations from a re-analysis of the deposited data

Results flagged for a closer look

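In every treatment the effect on some of the 46 genes differed between 24 h and 72 h by the interaction term of the 36-library fit, which was tested gene by gene, and 13 genes passed in no treatment. The number of genes whose effect was lower at 72 h was 25 with AU2-94 1 µM, 14 with AU2-94 2 µM, 27 with atirmociclib 1 µM, 26 with atirmociclib 2 µM and 16 with ribociclib, and the number whose effect was higher was 2, 1, 1, 1 and 1. Among the genes shown library by library, UTP20 differed by -0.54 and -0.25 with AU2-94 1 and 2 µM, -0.64 and -0.71 with atirmociclib 1 and 2 µM and -0.54 with ribociclib. FBL differed by -0.30 with AU2-94 1 µM, -0.48 and -0.55 with atirmociclib 1 and 2 µM and -0.35 with ribociclib. LYAR differed by -0.31 with AU2-94 1 µM and by -0.49 and -0.47 with atirmociclib 1 and 2 µM, and GRWD1 by -0.41 with AU2-94 1 µM and -0.53 with atirmociclib 2 µM. TCOF1 differed the other way, by 0.31 and 0.43 with AU2-94 1 and 2 µM, 0.29 and 0.49 with atirmociclib 1 and 2 µM and 0.46 with ribociclib. Cells of the 2 times were seeded at different densities, and the part of density in these differences cannot be told apart from that of time. Groups held 3 libraries each, so no test for a single outlying library was applied.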

How the results depend on the processing

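At 72 h between 20 and 40 of the 46 genes were lower in each treatment under each setting that kept all of them, and 9 to 16 of the 19 members with no shared sequence. Of the values for single genes, 378 lost and 64 gained a call when 1 library was left out, against 5078 that did neither, and under other settings 229 lost, 215 gained and 6 turned direction, against 7830. Reversed under quantile normalisation were NPM1 at 24 h (-0.043, -0.12, -0.081, -0.080 and -0.071 with AU2-94 1 and 2 µM, atirmociclib 1 and 2 µM and ribociclib) and the difference between times of NCL with AU2-94 2 µM (0.0078). The cause was not tested.

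Of the 46 genes, those lower at 24 h made up 17.4% with AU2-94 1 µM and 15.2% with ribociclib under the GC content and length correction with the replicate block, and 30.4% with atirmociclib 1 µM at equal totals. With atirmociclib 2 µM they made up 15.2% under quantile normalisation, 19.6% at equal totals, 5.26% among members with no shared sequence and 4.35% under GC content and length with the replicate block. Those whose effect in AU2-94 2 µM was lower (more negative) at 72 h than at 24 h made up 15.8% of members with no shared sequence. Between vehicle times 10.9% changed with a mean of at least 100, 15.2% with GC content and length and 13.04% with the block added.

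Between compounds at 24 h, atirmociclib 1 µM against AU2-94 1 µM changed 2.17% without a filter, under quantile normalisation, at equal totals, with only the groups compared and without the trend. Atirmociclib 2 µM against AU2-94 2 µM changed 15.2% under quantile normalisation and at equal totals, 13.04% with only the groups compared and 58.7% with GC content and length, with or without the block. Atirmociclib 2 µM against ribociclib changed 4.35% under quantile normalisation, 2.17% with only the groups compared or without the trend and 5.26% with no shared sequence.

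At 72 h, atirmociclib 1 µM against AU2-94 1 µM changed 13.04% under quantile normalisation, 17.4% at equal totals, 2.17% without the trend and 10.5% with no shared sequence. Atirmociclib 2 µM against AU2-94 2 µM changed 31.6% with no shared sequence, and against ribociclib 15.2% at equal totals and 15.8% with no shared sequence. Atirmociclib 2 µM against 1 µM changed 8.70% with a mean of at least 100 or with GC content and length, with or without the block, and 2.17% without the trend.

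With 1 library left out, the share lower at 24 h ran from 17.4% to 23.9% with AU2-94 1 µM, lowest without vehicle replicate 1 or 3, and from 26.1% to 37.0% with AU2-94 2 µM, lowest without its replicate 1. The share changed at 24 h ran from 2.17% to 6.52% for atirmociclib 1 µM against AU2-94 1 µM, 15.2% to 23.9% for atirmociclib 2 µM against AU2-94 2 µM and 0% to 8.70% for atirmociclib 2 µM against ribociclib. At 72 h it ran from 0% to 4.35% for atirmociclib 1 µM against AU2-94 1 µM and 0% to 6.52% for atirmociclib 2 µM against 1 µM. The replicate block changed 12 calls of the list and no other: besides those given above, LAS1L with AU2-94 1 µM (0.0533) and NOP2 with atirmociclib 1 µM (0.0511) lost the difference between times, and URB2 with AU2-94 1 µM (0.0433) and RRP12 and NIP7 with atirmociclib 1 µM (0.0397 and 0.0487) passed at 24 h, as adjusted p in limma. The raw depth is unknown, so no limit from depth is given.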
